A study of Danio rerio with 6 samples.

Results

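A set of 10 transcription regulators of haematopoietic stem and progenitor cells, *runx1*, *myb*, *gata2a*, *gata2b*, *gfi1aa*, *gfi1ab*, *tal1*, *lmo2*, *ikzf1* and *spi1b*, were followed in RNA-seq libraries of zebrafish embryos. They were taken by gene symbol from a deposited table of 21769 genes, in which each of the 10 had 1 row, and the shorter deposited table of 956 genes held 0 of them. All embryos belonged to strain AB and were collected 36 hours after fertilization (36 hpf). A group of 3 libraries carried the genotype label WT sibling, and the other group of 3 libraries was labelled *dhx38*-- or *dhx38*-/-, with the allele not stated. Both groups were labelled as tail tissue, while the extraction protocol names the trunk. The product of *dhx38* is a DEAH-box helicase that takes part in pre-mRNA splicing, and the comparison asked how its mutants differed from their siblings. Nothing states that libraries sharing a genotype came from different clutches. The p-values weigh the group difference against the spread within groups of these 6 libraries, and may not carry over to other clutches.

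In the embryo, definitive blood stem cells arise from haemogenic endothelium in the floor of the dorsal aorta, where endothelial cells round up and leave the vessel wall. The Gata2, Tal1 and Lmo2 proteins act early in endothelial and blood precursors, Runx1 is required for the transition to blood, and Myb for the maintenance of the stem and progenitor cells that follow. In mouse, Gfi1 proteins repress endothelial genes during that step, and Ikzf1 and Spi1 (PU.1) direct lymphoid and myeloid fates. Several of these genes are also active outside blood: *gata2a* and *tal1* in inhibitory interneurons of the spinal cord, *runx1* in Rohon-Beard sensory neurons, and *gfi1ab* in sensory cells.

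None of the 10 regulators passed the threshold of an adjusted p of 0.05 between mutants and siblings (limma on log2(value + 1), Benjamini-Hochberg over all genes). The same test called 1.7% of all genes, and 0 of the 10 against 20.9% of all genes had an unadjusted p under 0.05. Their adjusted p ran from 0.464 for *myb* to 0.895 for *spi1b*. The fitted log2 fold changes were above 0 for 5 genes and below 0 for 5, with a median of -0.02, beside -0.01 over all genes. With the replicate number as a block, 0 of the 10 passed while 13.7% of all genes did, and 1 regulator, *runx1*, had an unadjusted p under 0.05, beside 31.5% of all genes.

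Values are normalized CPM, the deposited signal per gene, in which 1 read was worth 0.0259 to 0.0546 depending on the library. Depth recovered from these steps was 20.05 to 36.5 M reads in siblings and 19.5 to 37.7 M in mutants, and replicate 3 of both groups was the shallower. The first principal component of all genes placed mutant replicate 1 (-2.01) between the siblings (-35.1 to -19.0) and mutant replicates 2 and 3 (43.8 and 40.9). *dhx38* was at 33.77, 33.77 and 27.26 in sibling replicates 1, 2 and 3 and at 57.24, 90.38 and 53.11 in the mutants (log2 fold change 1.03, limma adjusted p = 0.0630). Blocking by replicate number gave a limma adjusted p of 0.00664, past the threshold. The mutation is not stated, so this level does not check the genotype. Posterior *hox13* genes were present in all libraries, for example *hoxb13a* at 8.15, 9.08 and 10.02 in siblings and at 6.04, 7.14 and 7.54 in mutants. So were genes known from the head. The forebrain gene *foxg1a* was at 31.35, 30.91 and 27.41 in siblings and at 22.51, 15.64 and 17.05 in mutants, and the lens gene *crybb1* at 546, 502 and 362 in siblings and at 468, 181 and 121 in mutants. These 3 genes were lower in the mutant of every pair, and in the blocked fit both head genes fell (limma adjusted p = 0.0192 for *foxg1a*, 0.0230 for *crybb1*). The *hox13* genes did not move together. *hoxa13b* was also lower in every pair, while *hoxa13a*, *hoxc13a*, *hoxc13b* and *hoxd13a* were not. *hoxc13a* was at 8.89, 11.56 and 16.51 in siblings and at 7.24, 16.06 and 17.27 in mutants. The part of head tissue in the values of the 10 regulators was not tested. In RNA from whole tissue, fewer cells of a type and less RNA per cell cannot be told apart.

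*runx1*, the runt-domain factor that marks the emerging stem cells, was at 2.27, 2.94 and 0.83 normalized CPM in sibling replicates 1, 2 and 3 and at 3.01, 3.98 and 1.80 in mutant replicates 1, 2 and 3. The groups overlapped, but the mutant library was the higher in each of the 3 same-number pairs, and replicate 3 was the lowest of both groups. Of all genes, 52.7% moved in 1 direction in all 3 pairs.

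The ratio of mutant to sibling *runx1* was 1.33 (95% counting interval 0.977 to 1.80), 1.35 (1.05 to 1.74) and 2.17 (1.16 to 4.22) in pairs 1, 2 and 3. These intervals were taken from the recovered reads by the exact binomial method and cover counting error only, and pair 3 rested on 16 and 33 reads. Across the 6 libraries the log2 fold change was 0.42 (SE 0.31, 95% interval -0.31 to 1.14), with a limma adjusted p of 0.494. Blocked by replicate number, the estimate was again 0.42 and its error smaller (SE 0.13, interval 0.11 to 0.72), but it did not pass either (limma adjusted p = 0.0716). Leaving out sibling replicate 3 brought it to 0.09 (limma adjusted p = 0.886), and leaving out each of the other libraries gave 0.22, without mutant replicate 2, to 0.64.

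*myb*, the stem cell maintenance factor, was at 25.33, 28.37 and 27.15 in the siblings and at 21.75, 24.25 and 24.64 in the mutants. All 3 mutant libraries lay below all 3 siblings. Groups that did not overlap were seen in 27.1% of all genes, 13.8% with the mutants lower, and in 2 of the 10 regulators.

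The *myb* ratios within pairs were 0.859 (0.778 to 0.948), 0.855 (0.782 to 0.935) and 0.908 (0.798 to 1.03). The 3 pairs thus gave values close to one another, each from 451 reads or more per library. The log2 fold change was -0.19 (SE 0.13, 95% interval -0.49 to 0.12; limma adjusted p = 0.464), and the adjusted p was 0.345 with the block. Among the alternatives tried it ranged from -0.23 to -0.13, so the fitted decrease in *myb* was small and did not pass under any of them.

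**Figure D1:**
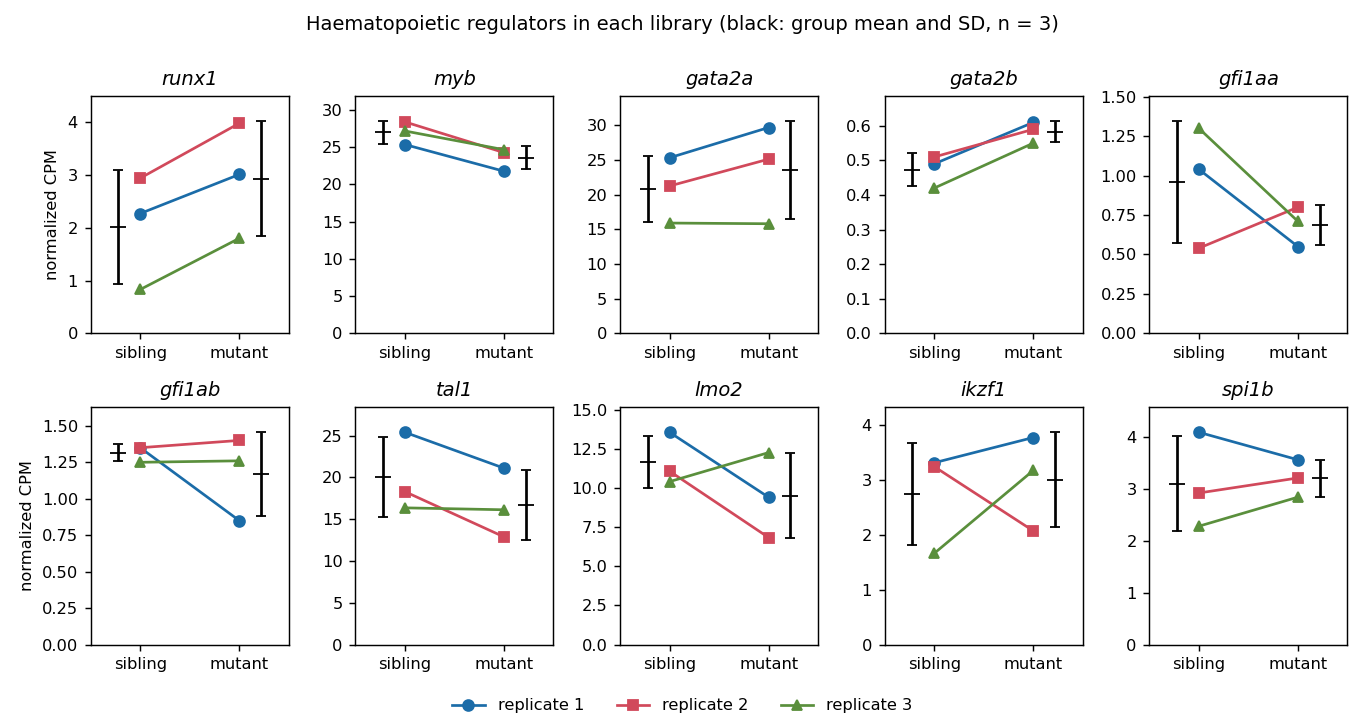
Normalized CPM (vertical axes, each from 0) of the 10 regulators in sibling and mutant libraries, with lines joining libraries of the same replicate number and black bars for the group mean and SD (n = 3). *myb* was lower and *runx1* and *gata2b* higher in the mutant of every pair, and in *runx1* and *gata2a* replicate 3 was the lowest of both groups.

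The *gata2* duplicates encode zinc-finger factors of endothelial and blood precursors. *gata2b*, which in zebrafish is active in haemogenic endothelium upstream of *runx1*, was at 0.49, 0.51 and 0.42 in siblings and at 0.61, 0.59 and 0.55 in mutants. The mutants were above the siblings without overlap, as in 13.3% of all genes, but these values rested on 8 to 23 reads per library.

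The *gata2b* ratios of 1.25, 1.16 and 1.31 had counting intervals from 0.468 to 3.84 at their widest, in pair 3, and all 3 intervals held 1. Its log2 fold change was 0.10 (SE 0.13; limma adjusted p = 0.685), on a scale that compresses low genes. With a pseudocount of 0.1 it was 0.26 (95% interval -0.09 to 0.60; limma adjusted p = 0.378). The reads of *gata2b* spread within groups by less than counting error, with a chi-square over degrees of freedom of 0.128 in siblings and 0.0451 in mutants.

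*gata2a* was at 25.30, 21.23 and 15.89 in siblings and at 29.66, 25.10 and 15.79 in mutants. The order of the replicates was the same in both groups, with replicate 1 the highest and replicate 3 the lowest. The mutant library was higher in pair 1, by a ratio of 1.17 (1.07 to 1.28), and in pair 2, by 1.18 (1.08 to 1.30). In pair 3 the ratio was 0.994 (0.843 to 1.17).

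*gata2a* had a log2 fold change of 0.15 (SE 0.26, 95% interval -0.44 to 0.74; limma adjusted p = 0.788), which turned to -0.04 without mutant replicate 1 and to -0.02 without sibling replicate 3. The ratio of *gata2b* to *gata2a* within a library was 0.0194, 0.0240 and 0.0264 in siblings and 0.0206, 0.0235 and 0.0348 in mutants, so the groups overlapped and replicate 3 had the highest ratio of both. The paralog *gata3*, which like *gata2a* is active in spinal interneurons, was at 43.06, 34.07 and 35.93 in siblings and at 45.10, 43.15 and 38.63 in mutants (log2 fold change 0.17, limma adjusted p = 0.570).

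*tal1*, a basic helix-loop-helix factor of blood and endothelial precursors, was at 25.39, 18.29 and 16.35 in siblings and at 21.10, 12.88 and 16.12 in mutants. It was lower in the mutant of each pair, although sibling replicate 1 and mutant replicate 1 were the highest of their groups and the groups overlapped. The ratio was 0.831 (0.752 to 0.918) in pair 1, 0.704 (0.626 to 0.792) in pair 2 and 0.986 (0.838 to 1.16) in pair 3. The log2 fold change of *tal1* was -0.25 (SE 0.22, 95% interval -0.76 to 0.26; limma adjusted p = 0.569), and ranged from -0.42 without mutant replicate 1 (limma adjusted p = 0.268) to -0.09 without mutant replicate 2 and -0.07 without sibling replicate 1 (limma adjusted p = 0.912).

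*lmo2* encodes the LIM-domain bridge that holds Tal1 and Gata factors in 1 complex. It was at 13.59, 11.10 and 10.43 in siblings and at 9.43, 6.85 and 12.29 in mutants. Mutant replicates 1 and 2 were below all siblings, while mutant replicate 3 was above sibling replicates 2 and 3.

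The *lmo2* ratio was 0.694 (0.601 to 0.801) in pair 1 and 0.617 (0.527 to 0.722) in pair 2, but 1.18 (0.970 to 1.43) in pair 3. *tal1* and *lmo2* thus had their lowest ratios in pair 2 and their highest in pair 3. The log2 fold change of *lmo2* was -0.30 (SE 0.21, 95% interval -0.78 to 0.19; limma adjusted p = 0.465). It was -0.48 without mutant replicate 3 (limma adjusted p = 0.200) and -0.10 without mutant replicate 2 (limma adjusted p = 0.867).

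The *gfi1* duplicates encode zinc-finger repressors. *gfi1aa*, which in zebrafish is active in primitive red cells and haemogenic endothelium, was at 1.04, 0.54 and 1.30 in siblings and at 0.55, 0.80 and 0.71 in mutants. The siblings spread more widely than the mutants and the groups overlapped. The ratio was 0.529 (0.290 to 0.958) in pair 1, 1.48 (0.819 to 2.75) in pair 2 and 0.546 (0.257 to 1.11) in pair 3, from 13 to 36 reads per library.

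*gfi1ab* was at 1.35, 1.35 and 1.25 in siblings and at 0.85, 1.40 and 1.26 in mutants. Only mutant replicate 1 stood below the siblings, with a ratio of 0.630 (0.380 to 1.02), and pairs 2 and 3 gave 1.04 and 1.01. The log2 fold changes were -0.20 for *gfi1aa* (SE 0.18; limma adjusted p = 0.568) and -0.10 for *gfi1ab* (SE 0.15; limma adjusted p = 0.741). That of *gfi1aa* was -0.07 without sibling replicate 3, -0.36 without sibling replicate 2 and -0.37 with a pseudocount of 0.1. The ratio of *gfi1aa* to *gfi1ab* within a library was 0.770, 0.400 and 1.04 in siblings and 0.647, 0.571 and 0.563 in mutants, so the mutants lay inside the range of the siblings.

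*ikzf1*, the Ikaros factor of lymphoid progenitors, was at 3.31, 3.24 and 1.66 in siblings and at 3.77, 2.07 and 3.17 in mutants. The pairs pointed in opposite directions, with a ratio of 0.639 (0.475 to 0.854) in pair 2 and 1.91 (1.22 to 3.04) in pair 3, both beyond counting error, and 1.14 (0.878 to 1.48) in pair 1. Its log2 fold change was 0.11 (SE 0.24, 95% interval -0.44 to 0.66; limma adjusted p = 0.838).

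*spi1b*, which encodes the myeloid factor PU.1, was at 4.09, 2.92 and 2.28 in siblings and at 3.56, 3.21 and 2.84 in mutants. Replicate 1 was the highest and replicate 3 the lowest of both groups. Its ratios ran from 0.870 in pair 1 to 1.25 in pair 3, and all 3 counting intervals held 1. The log2 fold change was 0.06 (SE 0.19, 95% interval -0.37 to 0.48; limma adjusted p = 0.895). The ratio of *spi1b* to *tal1* was 0.161, 0.160 and 0.139 in siblings and 0.169, 0.249 and 0.176 in mutants. It was higher in all 3 mutants, the only 1 of 4 ratios between regulators computed in which the groups did not overlap. Groups did not overlap in 27.1% of all single genes. A two-sided exact permutation test of this ratio gave p = 0.1, the smallest it can give with 3 libraries per group.

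**Figure D2:**
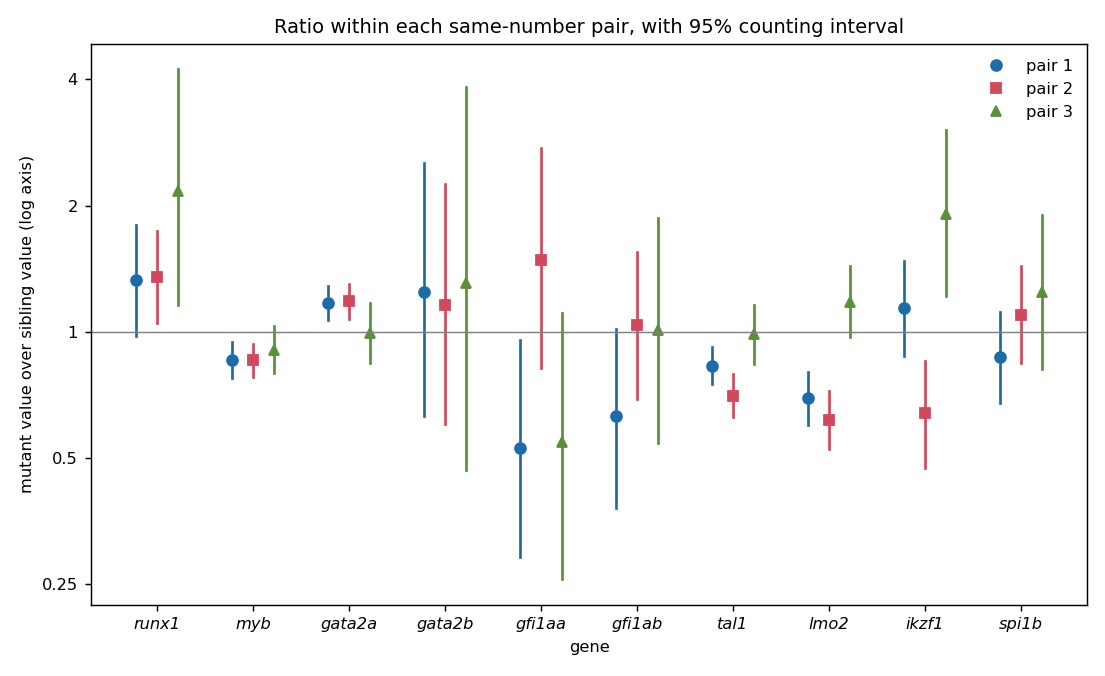
Mutant value over sibling value within each same-number pair (vertical log axis) for each regulator, with 95% exact binomial intervals that cover counting error only. *runx1* lies above 1 and *myb* below 1 in all 3 pairs, while *lmo2* and *ikzf1* lie on both sides of 1.

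Over the 10 regulators, 16 of 30 pair ratios were above 1 and 14 below. The counting interval left out 1 in 13 of the 30, in 5 with the mutant higher and in 8 with the mutant lower. These intervals leave out the spread between libraries of a group, and their share over all genes was not computed, so the count does not measure change. The direction was the same in all 3 pairs for 4 genes, *runx1*, *gata2b*, *myb* and *tal1*, or 4 of 10 beside 52.7% of all genes. The median log2 difference of the 10 genes was -0.18, 0.05 and 0.07 in pairs 1, 2 and 3, beside -0.01, -0.01 and 0.00 over all genes.

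All 10 of the 95% intervals of the fold change held 0. For 9 genes the interval also lay between -1 and 1 on the log2(value + 1) scale, so that for these a change of 1 or more on that scale lay outside it. That scale compresses low genes, for which a change of 1 is a larger change in the values themselves. *gata2b* and *gfi1aa* had sibling means of 0.473 and 0.96, so even total loss could not reach -1. For them the lower bound was met in advance. The *gata2b* counting interval in pair 3 ran from 0.468 to 3.84. The interval of *runx1* reached 1.14; in 15.4% of all genes it went past 1 or -1. At a pseudocount of 0.1, which compresses low genes less, the intervals of *runx1* (-0.57 to 1.80) and *gfi1aa* (-1.12 to 0.38) went past that size.

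**Figure D3:**
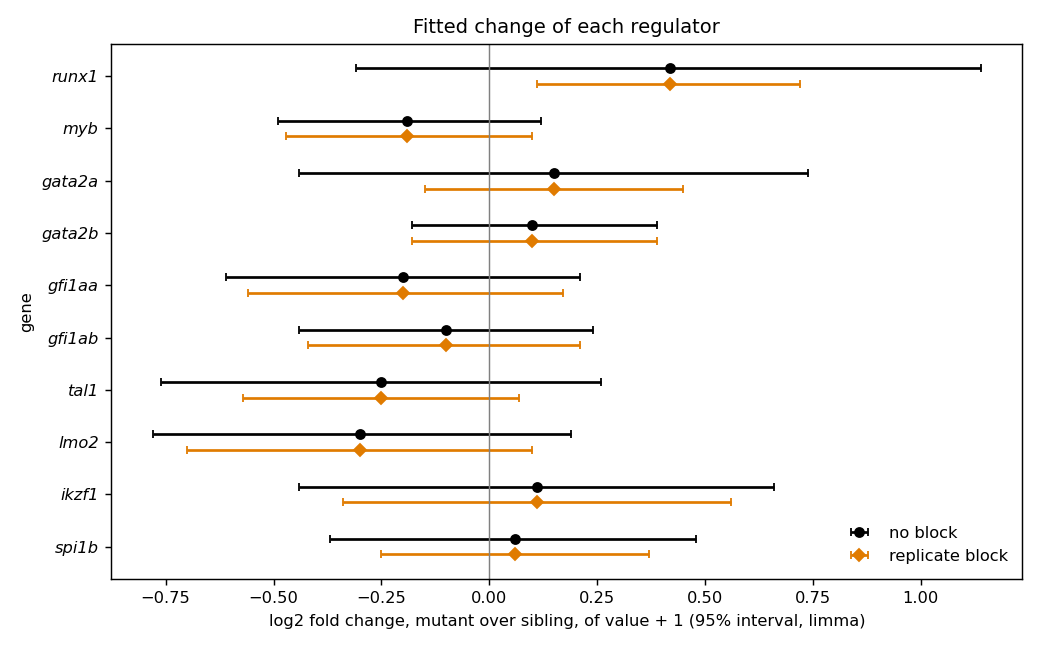
Log2 fold change of mutant over sibling with its 95% limma interval (horizontal axis) for each regulator, without a block and with the replicate number as a block. Without the block all 10 intervals hold 0; with it the interval of *runx1*, 0.11 to 0.72, does not, and its adjusted p over all genes is 0.0716.

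For several regulators the replicate number took a larger share of the spread than the genotype, as in the medians over all genes. The replicate number has more levels than the genotype, so it tends to take a larger share even where neither has an effect. The shares therefore do not rank the 2 by size of effect. The sum of squares of log2(value + 1) over the 6 libraries was split into genotype, replicate number and remainder, as a description. The replicate number took 92.1% for *gata2a*, 81.7% for *spi1b*, 77.4% for *runx1* and 71.9% for *tal1*, beside a median of 42.0% over all genes. The genotype took 5.10% for *gata2a*, 2.06% for *spi1b*, 20.3% for *runx1* and 18.1% for *tal1*, beside a median of 27.6%.

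*gata2b* and *myb* stood apart in this split, with 73.4% and 63.6% on the genotype, although their total spread was small, with an SD of 0.0666 and 0.129 on the log2 scale beside a median of 0.248 over all genes. The remainder was the largest portion for *ikzf1* (57.4%), *gfi1aa* (52.1%), *gfi1ab* (46.1%) and *lmo2* (41.6%). Within groups, the reads of *gata2a* and *tal1* had the largest chi-square over degrees of freedom, averaged over the groups, at 35.8 and 34.9. This measure grows with the number of reads, so it does not rank genes by relative spread. For *runx1*, with 16 to 154 reads per library, it was 11.1. For *gfi1ab* it was 1.26, the average of unlike values, 0.0640 in siblings and 2.45 in mutants. Replicate 3 was the shallower in both groups, so its difference from the others cannot be told apart from depth. Replicates 1 and 2 were closer in depth, at 34.75 and 36.5 M reads in siblings and 32.06 and 37.72 M in mutants. Replicate number also cannot be told apart from the 2 sequencing providers that the protocol names without assigning libraries.

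**Figure D4:**
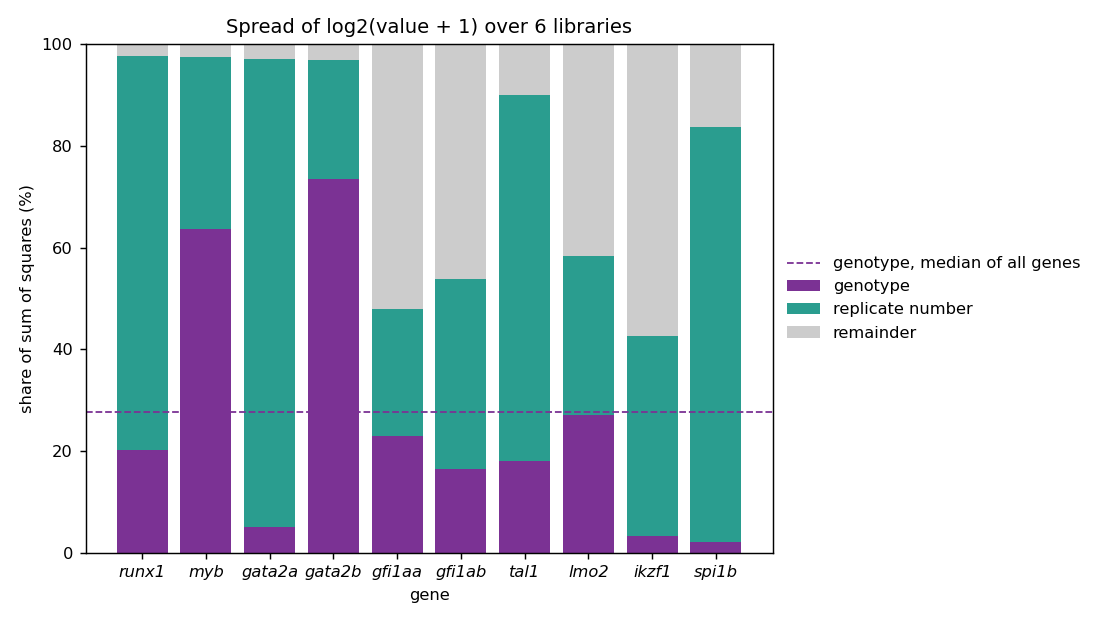
Share of the sum of squares of log2(value + 1) over the 6 libraries (vertical axis, percent) taken by genotype, replicate number and remainder for each regulator, with the median genotype share of all genes (27.6%) as a dashed line. *gata2b* and *myb* lie above the line, and *gata2a*, *runx1*, *tal1* and *spi1b* are mostly replicate number.

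Proteins that act with these regulators, and the paralogs of the 10 genes, were counted in the same fit. With the replicate block 28 genes of these and the following lists passed, 13 higher and 15 lower. The lists had 9 to 30 measured genes each, and the block called 13.7% of all genes. Calls with the block, here and in the following lists, stand beside that share and are not read as a result about the lists. Of the 28, 0 passed with the block and a pseudocount of 0.1 (limma adjusted p from 0.0559 to 0.155). Of 25 partners and cofactors 0 passed, with a median log2 fold change of -0.08. At an unadjusted p under 0.05 in limma, 4 of the 25 were higher and 2 lower, beside 20.9% of all genes in either direction. *cbfb*, the obligate partner of Runx1, was at 44.42, 41.85 and 47.04 in siblings and at 38.44, 36.04 and 35.52 in mutants. These groups did not overlap, as those of *myb* did not, but *cbfb* did not pass (log2 fold change -0.27, limma adjusted p = 0.282). *ldb1a*, which links Lmo2 to its complex, had a log2 fold change of -0.17 (limma adjusted p = 0.531), and *kdm1a*, a demethylase that Gfi1 recruits, also -0.17 (limma adjusted p = 0.505).

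The acetyltransferase genes *crebbpa* and *ep300a*, whose products bind Myb, were higher in all mutants. *crebbpa* was at 83.16, 72.51 and 86.13 in siblings and at 121.6, 142.17 and 116.93 in mutants. It did not pass (log2 fold change 0.65, limma adjusted p = 0.0705), but rose with the replicate block (limma adjusted p = 0.02497), as did *ep300a* (0.58; limma adjusted p = 0.0984, and 0.0296 with the block). At a pseudocount of 0.1 neither passed with the block (limma adjusted p = 0.107 and 0.111).

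Of 21 measured paralogs of the regulators 0 passed, with a median of 0.06, and with the replicate block 3 rose and 2 fell. *mybl1*, a paralog of *myb* known from mouse germ cells, was at 33.42, 35.34 and 25.28 in siblings and at 24.64, 14.25 and 15.85 in mutants. It was lower without overlap and fell with the block (limma adjusted p = 0.0234; 0.116 without it), but the blocked fit at a pseudocount of 0.1 did not call it (0.110). *gfi1b*, *spi1a*, *tal2* and *runx3* had log2 fold changes of -0.25, -0.34, -0.37 and 0.13 and did not pass, with or without the block.

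Among 30 genes of haemogenic endothelium and Notch signalling 1 passed, beside 1.7% of all genes. Which cells held their transcripts was not tested. *jag1b*, a Notch ligand gene, rose from 37.91, 40.12 and 43.71 in siblings to 72.30, 100.67 and 73.82 in mutants (log2 fold change 0.99, limma adjusted p = 0.0352), and did not pass in 5 of 6 fits that left out 1 library, the exception being the fit without mutant replicate 1, or with a pseudocount of 0.1 (limma adjusted p = 0.0709). The median of this list was 0.04, and *jag2a*, another ligand gene, also rose with the block (limma adjusted p = 0.0209). *notch1b*, a receptor gene needed for *runx1* in the aorta, was at 125.7, 129.9 and 114.3 in siblings and at 158.7, 150.5 and 76.17 in mutants. It was thus high in mutant replicates 1 and 2 and low in mutant replicate 3. *dll4*, *fli1a* and *npas4l* had log2 fold changes of 0.07, 0.01 and -0.07 (limma adjusted p of 0.809 or more).

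Surface and signalling genes of stem and progenitor cells gave 0 calls among 23 measured, with a median of 0.09. *ptprc*, the pan-leukocyte CD45 gene, was at 3.43, 3.16 and 2.34 in siblings and at 3.04, 2.22 and 3.88 in mutants and overlapped. *kita*, a receptor gene known from pigment cells in zebrafish, was at 5.67, 8.35 and 10.12 in siblings and at 13.31, 17.35 and 11.09 in mutants, and rose with the block (limma adjusted p = 0.0387; 0.135 without it), but the blocked fit at a pseudocount of 0.1 did not call it (0.135).

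Markers of the cells that also hold these transcripts were set beside them. Of 16 endothelial genes 1 passed, the scavenger receptor gene *stab2* (log2 fold change 1.04, limma adjusted p = 0.0398), which did not pass in 5 of 6 fits that left out 1 library, the exception being the fit without mutant replicate 1, or with a pseudocount of 0.1 (limma adjusted p = 0.0844). *cldn5b* fell with the block (limma adjusted p = 0.0253). The median of the list was 0.05, and its summed level was 342 to 354 in siblings and 371 to 412 in mutants. Without *stab2* the sum of the other 15 genes was 297.7 to 300.0 in siblings and 283.1 to 298.5 in mutants. *kdrl* and *cdh5* were at log2 fold changes of 0.12 and 0.01. Of 14 erythroid genes 0 passed. With the block *hbae3* fell (limma adjusted p = 0.0463) and *sptb* rose (limma adjusted p = 0.0391), and the summed level was 3275 to 8120 in siblings and 2268 to 4429 in mutants. Globin genes made up most of this sum. Like *tal1*, *gata1a* and *hbae1.1* were highest among the siblings in replicate 1, with *gata1a* at 6.13, 3.73 and 3.58 and *hbae1.1* at 3946, 1993 and 1372. In the mutants *gata1a* was at 5.75, 2.82 and 7.87 and *hbae1.1* at 2066, 871 and 1588, lowest in replicate 2 as *tal1* was. Of 18 myeloid genes 0 passed (1 rose and 4 fell with the block). Their median was -0.26 beside 0.06 for *spi1b*, and their summed level was 121 to 219 in siblings and 108 to 170 in mutants. Of the 18, 12 had a negative log2 fold change and 6 a positive one. *mpx* (-0.73) and *lyz* (-0.80) were lower in every pair and overlapped between groups (limma adjusted p = 0.255 and 0.487, and 0.0184 and 0.00850 with the block). *mfap4* was lower (-0.72) and *slc7a7* higher (0.61), both without overlap.

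Of 13 genes of spinal V2b and cerebrospinal fluid-contacting neurons, which share *gata2a* and *tal1*, 0 passed (*foxn4* fell with the block, limma adjusted p = 0.0401), with a median of -0.01 and a summed level of 253 to 280 in siblings and 218 to 249 in mutants. *gad1b* was at 22.02, 18.67 and 17.81 in siblings and at 21.86, 19.16 and 18.74 in mutants. Of 11 measured genes of Rohon-Beard and sensory neurons, which share *runx1*, 0 passed (2 rose with the block) and 10 of 11 had a positive log2 fold change, with a median of 0.32 and a summed level of 154 to 170 in siblings and 176 to 213 in mutants. *isl2a* was at 28.01, 22.48 and 22.22 in siblings and at 29.45, 32.06 and 34.86 in mutants (limma adjusted p = 0.189), so that, like *runx1*, it was higher in each mutant of a pair.

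Of 14 measured hair cell and lateral line genes 0 passed (*atoh1a*, *atoh1b* and *s100t* fell with the block), with a median of -0.10 and a summed level of 154 to 185 in siblings and 133 to 156 in mutants. *atoh1a* was at 24.90, 26.12 and 25.96 in siblings and at 16.55, 9.13 and 11.15 in mutants (limma adjusted p = 0.0506; 0.00919 with the block). Of 9 measured genes of retinal ganglion cells and head 0 passed (3 fell with the block), with a median of -0.27. Their summed level was 780 to 1006 in siblings and 432 to 930 in mutants. The lens gene *crybb1*, at 362 to 546 in siblings and 121 to 468 in mutants, made up a large part of it. That sum therefore does not describe retinal ganglion cells alone. No gene of these lists was at 0 in all libraries. The part of these cell types in the values of the 10 regulators was not tested.

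**Figure D5:**
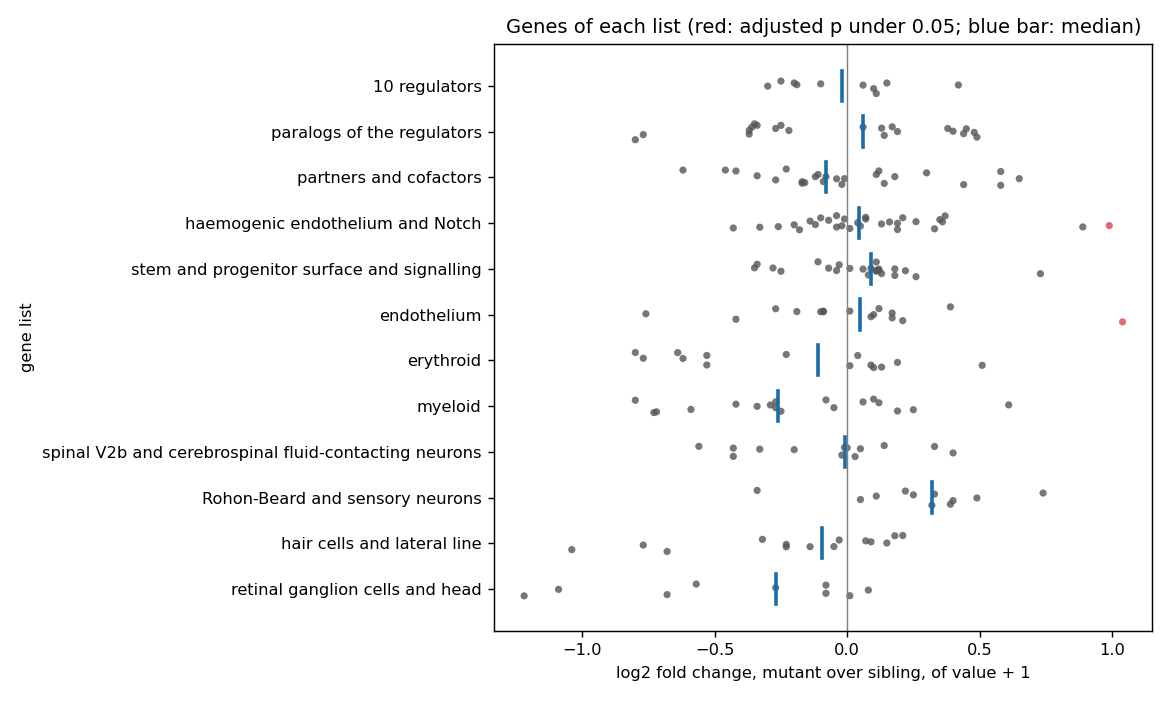
Log2 fold change of mutant over sibling (horizontal axis) of each gene in 12 lists, with the list median as a blue bar and genes with an adjusted p under 0.05 in red. The 10 regulators lie between -0.30 and 0.42 with none in red; the called genes are *jag1b* and *stab2*.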

How the data were processed

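The authors deposited 1 signal value per gene and library, with 2 decimals, called normalized CPM per the file headers. GRCz11 is the build in the submitters' processing notes, which list edgeR, featureCounts, STAR and fastp as tools without versions. How values were scaled and genes filtered, and whether counting used strand, is not stated, so reads from a gene and an overlapping or antisense partner cannot be separated. Groups and replicate numbers came from the sample titles. All 10 regulator IDs, and 20433 of 21769 in all, matched the Ensembl name table.

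Log2(value + 1) was fitted with limma 3.58.1 (R 4.3.3, lmFit and eBayes) for mutant against sibling over all genes without a filter, with Benjamini-Hochberg adjustment and a threshold of 0.05. The script was tested on simulated data. The value of 1 read per library was the step between low values: within a tolerance of 0.0055, at least 99.8% of values per library were whole multiples. Reads from these steps served for depth and counting intervals (scipy 1.17.1, exact binomial, 95% level). A check set before the count test did not accept the steps in 4 of 6 libraries, where they were small beside the rounding, so no count test was run. The counting intervals rest on the same recovered reads and share that limit.

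Deviations from group means correlated between same-number libraries with r of 0.45, 0.43 and 0.57 in pairs 1, 2 and 3, so the numbers, which come from the titles, were taken to pair the libraries. The fit without the block stayed the reported one.

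The 10 genes and the other lists were chosen with earlier results of these data known. Named are the 10 regulators, *dhx38*, some of the genes with the smallest p of a list and some further genes set by name. The *hox13* genes, *s100t*, *hbae3* and the genes flanking the regulators were chosen after their values were seen.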

Additional observations from a re-analysis of the deposited data

How the results depend on the processing

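None of the 10 regulators passed under any of 13 alternatives, and 119 of 128 refitted fold changes kept their sign. The other 9 were *gata2a* (-0.02 without sibling replicate 3, -0.04 without mutant replicate 1), *gfi1ab* (0.01 without mutant replicate 1), *ikzf1* (-0.12 without sibling replicate 3, -0.03 without mutant replicate 1, -0.16 in replicates 1 and 2 alone) and *spi1b* (-0.09, -0.0033 and -0.03 in the same settings). When 1 library was left out, the range was -0.04 to 0.40 for *gata2a*, -0.18 to 0.01 for *gfi1ab*, -0.12 to 0.29 for *ikzf1* and -0.09 to 0.23 for *spi1b*. The lowest adjusted p, 0.0716, was that of *runx1* with the replicate block. The filter on low values left 8 of the 10. Over all genes 370 passed, 205 at the smaller pseudocount of 0.1, 2986 with the replicate block, 169 with both changes, 0 in replicates 1 and 2 alone, and 31 to 1731 when 1 library was left out (1731 without mutant replicate 1). The block changed no call among the 10; in the other lists it added calls, of which 0 held at a pseudocount of 0.1. The count tests that had been planned were not run. Causes were not tested. At 8 to 23 reads per library, *gata2b* could not be resolved to better than the counting intervals given.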

Other observations

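The genes beside the 10 regulators were looked up in the RefSeq table of the assembly GRCz12tu, for order only. Of 20 flanking protein-coding genes 16 had values, and 1 passed the threshold, beside 1.7% of all genes. With the replicate block 7 of the 16 passed, beside 13.7% of all genes: 1 rose and 6, *mtfr2*, *pbrm1*, *h1-10*, *rpap2*, *ier5* and *arl14ep*, fell. The gene that passed without the block was *eefsec*, the elongation factor gene for selenocysteine, which lies next to *gata2b*. It rose from 9.21, 10.62 and 7.22 normalized CPM in siblings to 19.41, 32.16 and 28.63 in mutants (log2 fold change 1.45, SE 0.22, limma adjusted p = 0.0245). The flank on the other side, the linker histone gene *h1-10*, was at 40.62, 25.34 and 61.99 in siblings and at 22.71, 9.49 and 31.36 in mutants (limma adjusted p = 0.232; 0.00509 with the replicate block). *gata2b* itself, at 8 to 23 reads per library, was the regulator with the largest genotype share in the split of its spread, and the part of its neighbours in its few reads was not tested. *pbrm1*, which overlaps *gata2a* in that assembly, was at 11.00, 9.54 and 8.77 in siblings and at 9.40, 3.75 and 4.43 in mutants, so that it was lower in the mutant of every pair, while *gata2a* was higher in 2 of 3 pairs.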
